A study of Mus musculus with 3 samples.

Results

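Transcripts of 8 genes of the Fc receptor system were followed in LPS-stimulated mouse macrophages. The genes are the IgG receptors Fcgr1, Fcgr2b, Fcgr3 and Fcgr4, the neonatal Fc receptor Fcgrt, the signalling adaptors Fcer1g and Tyrobp, and the kinase Syk. They were chosen by symbol as a functional group, and all 8 were found among the 54331 features of the deposited table. All 8 also passed the filter of a mean value of at least 10, as did 13877 features in all.

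The cells were RAW 264.7, a macrophage-like line whose background strain is labelled BALB/c and whose sex is labelled male. There were 3 libraries, all from cells given lipopolysaccharide (LPS, a bacterial ligand of TLR4) at 100 ng/mL for 5 h. A control shRNA was used for 1 library, whose genotype is labelled wild-type. For the remaining 2, labelled GIV-depleted, the shRNAs were shRNA 1 and shRNA 2 against GIV, a scaffold protein also called Girdin and encoded by Ccdc88a. Per the design text these 2 count as biological replicates made with different shRNAs, and whether each shRNA line was a clone or a pool is not stated. Unstimulated cells were not analysed here. The series title concerns the dampening of TLR4 signalling by GIV, so the comparison asks how transcripts under LPS differ with and without the shRNAs against GIV.

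Fc gamma receptors bind the constant part of IgG and let macrophages recognise and engulf coated particles. The activating receptors Fcgr1, Fcgr3 and Fcgr4 signal through the common gamma chain, encoded by Fcer1g, whose cytoplasmic tail carries an immunoreceptor tyrosine-based activation motif (ITAM). Src family kinases phosphorylate the ITAM, and the kinase Syk then docks on it. Fcgr2b is the inhibitory IgG receptor of macrophages: it carries an inhibitory motif (ITIM) that recruits the phosphatase SHIP1, encoded by Inpp5d. Tyrobp (DAP12) is an ITAM adaptor for other receptors such as Trem2. Fcgrt pairs with beta-2 microglobulin and carries IgG inside cells.

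The value of the targeted gene was checked first. Ccdc88a had 2580 normalized counts with the control shRNA, 1734 in the shRNA 1 library and 2561 in the library labelled shRNA 2. Lower Ccdc88a mRNA was thus seen in the shRNA 1 library and not in the library labelled shRNA 2, which goes against the label of the latter at the mRNA level. Each direction below that joins both libraries rests in part on that library, and the value of each library is given. Library totals were 49088771 normalized counts in the control, 49756670 in the shRNA 1 library and 47349097 in the library labelled shRNA 2. In the same order these stood for roughly 52708473, 44762436 and 49017471 reads. The share of mitochondrially encoded transcripts was 1.43% in the control, 0.995% in the shRNA 1 library and 1.14% in the library labelled shRNA 2. Relative to the control, longer transcripts and those of lower GC content tended to higher values with either shRNA, with Spearman correlations across 11568 genes of 0.21 and 0.20 for length and -0.25 and -0.19 for GC. Genes are not independent replicates, both libraries share the control, and the part of these shifts in the results below was not tested beyond the values with the trend removed.

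Several markers of the macrophage were abundant, with Lyz2 at 121997 to 199781, Cd14 at 112411 to 122965 and Adgre1 at 6272 to 7912 normalized counts. Others on the same list were low, with Mrc1 at 84.6 to 134 and Mertk at 10.6 to 15.0. The 9 macrophage markers together summed to 404377 in the control, 311430 in the shRNA 1 library and 333096 in the library labelled shRNA 2. Markers of the other cells were low or at 0, though the sums for B cells and dendritic cells lay above the values of Mrc1 and Mertk. The 6 mast cell markers summed to between 2.24 and 25.1, with 4 of them at 0 everywhere, and the 6 T and NK cell markers to between 3.57 and 12.3, with 3 at 0 everywhere. Neutrophil markers summed to between 45.6 and 78.4, nearly all of it S100a8, while Elane and Ly6g were at 0. B cell markers summed to between 143 and 172, mostly Pax5 (113 to 160), with Ms4a1 at 6.56 to 20.2. Dendritic cell markers summed to between 316 and 433, mostly Xcr1, while Flt3 and Siglech were at 0. Of the 3 tested, Xcr1 was lower in both libraries and 2 were higher in both. These were the class II gene H2-Aa, with 1.97, 16.5 and 75.5 normalized counts in the order control, shRNA 1 and shRNA 2, and the transcription factor gene Zbtb46, with 14.7, 17.5 and 34.9. For H2-Aa the log2 difference was 3.62 (SE 1.06, unadjusted p = 0.026, adjusted p = 0.65 in limma), and the part of these markers in the values below was not tested. Fibroblast markers summed to between 1.92 and 5.61.

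The receptor genes differ in how well their reads can be told apart, which bears on what each value means. Fcgr2b (ENSMUSG00000026656.15, chromosome 1, 170958617 to 170976547, minus strand, GRCm38), Fcgr4 (ENSMUSG00000059089.4, 171018920 to 171029761, plus strand) and Fcgr3 (ENSMUSG00000059498.13, 171051174 to 171064935, minus strand) lie within 106.3 kb of each other. The longest coding transcripts of Fcgr2b and Fcgr3 share 233 words of 31 bases, which is 6.63% of the words of Fcgr2b and 17.7% of those of Fcgr3. In all, 529 of the 3514 words of Fcgr2b (15.1%) occur in another gene, and besides Fcgr3 the genes that hold the most of them are Ntrk3 and Gm4117. The words shared by Fcgr2b and Fcgr3 lie in the coding part of both, between bases 323 and 758 of the Fcgr2b transcript, and over those 436 bases the transcripts have 426 bases in common (97.7%). Reads from that stretch can be split between the genes by the authors' quantification, so the values of Fcgr3, the shorter and less abundant of the pair, are the less certain. The longest stretch common to both coding parts is 129 bases long and is shown because a read inside it names neither gene. It spans the end of exon 3 and the start of exon 4 in both transcripts, at chr1:170967980-170968081 and chr1:170966674-170966700 in Fcgr2b and at chr1:171057691-171057792 and chr1:171054167-171054193 in Fcgr3, and reads 5′ to 3′ as follows.
Fcgr2b and Fcgr3, identical: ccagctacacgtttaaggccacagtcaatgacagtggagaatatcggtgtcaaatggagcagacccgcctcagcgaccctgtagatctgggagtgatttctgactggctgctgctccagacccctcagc

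The last 60 bases of the compared stretch show how little separates the transcripts where they do differ. Capitals mark the 2 positions that differ. Both lie in exon 4, at chr1:170966446-170966505 in Fcgr2b and chr1:171053939-171053998 in Fcgr3, minus strand.
Fcgr2b: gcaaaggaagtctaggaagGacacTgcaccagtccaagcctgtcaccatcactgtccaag
Fcgr3: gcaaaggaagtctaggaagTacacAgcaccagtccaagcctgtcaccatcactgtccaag

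**Figure D1:**
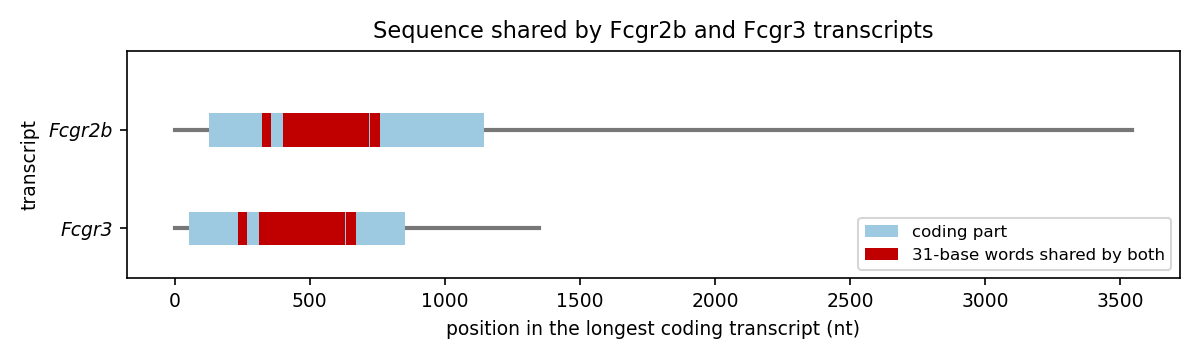
The horizontal axis gives the position in nucleotides along the longest coding transcript of Fcgr2b (3544 nt) and of Fcgr3 (1347 nt), with the coding part in blue and the stretches made of shared 31-base words in red. Shared stretches lie between bases 323 and 758 in Fcgr2b and between 234 and 669 in Fcgr3, and the long 3′ part of Fcgr2b holds none of them.

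None of the 31-base words of Fcgr1, Fcgrt, Fcer1g or Tyrobp occurs in a transcript of another annotated gene. Syk shares 3 of 5333 words, with genes outside this family. Fcgr4 shares 16 of 1226, and the genes that hold the most of these lie outside this family. Annotated features that overlap a gene of the group were at 0 in all libraries, other than the antisense transcript Gm38204. It had 0, 1.12 and 5.77 normalized counts in the order control, shRNA 1 and shRNA 2. Gm38204 overlaps Fcgr2b over 3175 bases and also reaches past the 5′ end of that gene. The libraries were stranded, but the strand setting of the counting is not stated, so whether reads of that pair were told apart is not known. Fcgr2b itself had 2724 to 5053 normalized counts.

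Promoter windows were available for 7 of the 8 genes, all but Tyrobp, from RefSeq on GRCm38.p6, each covering 250 bases before to 50 bases after a start site. They were searched on both strands for TTCNNNGAA (GAS, the element bound by STAT dimers), ISRE (the interferon-stimulated response element bound by IRF and STAT complexes, searched as GAAA, any 2 bases and GAAA) and GAGGAA (a core bound by PU.1, the myeloid factor encoded by Spi1). The windows of Fcgr1 and Fcgr4 are shown because the values of those genes were lower to a like degree with either shRNA, and that of Fcgr2b because its values were not lower. Capitals mark motif matches, none of which overlap each other.
Fcgr1, chr3:96293920-96294219, minus strand: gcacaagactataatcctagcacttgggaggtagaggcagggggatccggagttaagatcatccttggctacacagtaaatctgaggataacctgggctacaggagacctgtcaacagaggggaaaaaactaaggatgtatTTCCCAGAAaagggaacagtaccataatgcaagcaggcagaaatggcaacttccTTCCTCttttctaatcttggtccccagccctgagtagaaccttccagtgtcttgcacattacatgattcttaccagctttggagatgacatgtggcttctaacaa
Fcgr4, chr1:171018676-171018975, plus strand: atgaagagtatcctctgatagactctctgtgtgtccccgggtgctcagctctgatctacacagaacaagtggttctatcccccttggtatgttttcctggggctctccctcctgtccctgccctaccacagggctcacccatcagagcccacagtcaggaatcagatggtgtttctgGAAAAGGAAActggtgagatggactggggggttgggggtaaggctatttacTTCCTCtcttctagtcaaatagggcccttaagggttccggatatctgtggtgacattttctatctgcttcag
Fcgr2b, chr1:170976022-170976321, minus strand: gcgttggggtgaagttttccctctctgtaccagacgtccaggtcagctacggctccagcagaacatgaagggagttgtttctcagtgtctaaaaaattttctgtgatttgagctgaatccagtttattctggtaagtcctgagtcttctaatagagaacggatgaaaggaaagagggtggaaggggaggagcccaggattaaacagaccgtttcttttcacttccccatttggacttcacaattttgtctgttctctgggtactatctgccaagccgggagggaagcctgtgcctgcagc

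The Fcgr1 window holds 1 GAS match, TTCCCAGAA, starting 109 bases before the start site, and 1 PU.1 core 55 bases before it. The Fcgr4 window holds 1 ISRE match, GAAAAGGAAA, 73 bases before the start site, and 1 PU.1 core 22 bases before it. No GAS or ISRE match was found in the windows of the other genes, and the Fcgr2b, Fcgrt and Fcer1g windows hold none of the 3 motifs. Of 32851 promoter windows of the same length, 8.3% hold a GAS match, 3.44% an ISRE match and 28.3% a PU.1 core. These matches describe letters in a window and say nothing of binding in these cells.

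Among the activating receptors, Fcgr1 and Fcgr4 transcripts were at 0.662 to 0.727 of the control in both libraries labelled GIV-depleted. By limma 0 of the 13877 features (0%) passed an adjusted p of 0.05, so the differences below are values and not calls. At an unadjusted p under 0.05, 963 features (6.94%) passed, among them 2 of the 8 genes, Fcgr1 and Fcgr4. Each gene has a single residual degree of freedom, from the libraries labelled shRNA 1 and shRNA 2. limma moderates its variance with a trend over all tested features, so every such p also rests on that pooled spread. In bulk samples, fewer cells of a kind and less RNA per cell cannot be told apart. Of the 9 macrophage markers, 6 were also lower in both libraries, against 35.2% of all features tested. The median log2 differences of the 9 were -0.17 and -0.22, and their part in the receptor values was not tested.

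Fcgr1 (ENSMUSG00000015947.10, chromosome 3, 96282909 to 96293969, minus strand), the high-affinity IgG receptor, had 48715 normalized counts with the control shRNA, 32239 in the shRNA 1 library and 33167 in the library labelled shRNA 2. The control stood above both others, which lay close together at 0.662 and 0.681 of the control. The log2 difference on the log2(value + 1) scale was -0.58 (SE 0.13, unadjusted p = 0.011, adjusted p = 0.52 in limma). With the trend on GC content and length removed it was -0.57.

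Fcgr4, an activating receptor for certain IgG subclasses, had 4924, 3578 and 3517 normalized counts in the same order. Here too the control was the highest, and the others were at 0.727 and 0.714 of it. Its log2 difference was -0.47 (SE 0.12, unadjusted p = 0.019, adjusted p = 0.62 in limma), and -0.44 with the trend removed. The genes sit on different chromosomes and share no 31-base word.

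Fcgr3, the low-affinity activating receptor, was lower than the control mainly in the shRNA 1 library. Its values were 868 normalized counts with the control shRNA, 578 in the shRNA 1 library and 812 in the library labelled shRNA 2, or roughly 932, 520 and 841 reads. The libraries labelled GIV-depleted differed from each other more than the library labelled shRNA 2 differed from the control. The log2 differences were -0.59 and -0.10, with a mean of -0.34 (SE 0.27, adjusted p = 0.83 in limma).

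The inhibitory receptor Fcgr2b was level with the control in the shRNA 1 library and higher in the library labelled shRNA 2. It had 2724 normalized counts with the control shRNA, 2744 in the shRNA 1 library and 5053 in the library labelled shRNA 2. The first pair of values is nearly equal, at a ratio of 1.01, while the library labelled shRNA 2, whose Ccdc88a lay at the level of the control, had 1.86 times the control. The log2 differences were 0.01 and 0.89, with a mean of 0.45 (SE 0.40, adjusted p = 0.84 in limma). With the trend on GC content and length removed the difference of the shRNA 1 library was -0.06 and that of the library labelled shRNA 2 was 0.82. In that library Fcgr3, the gene it shares sequence with, had 812 normalized counts against 868 in the control.

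**Figure D2:**
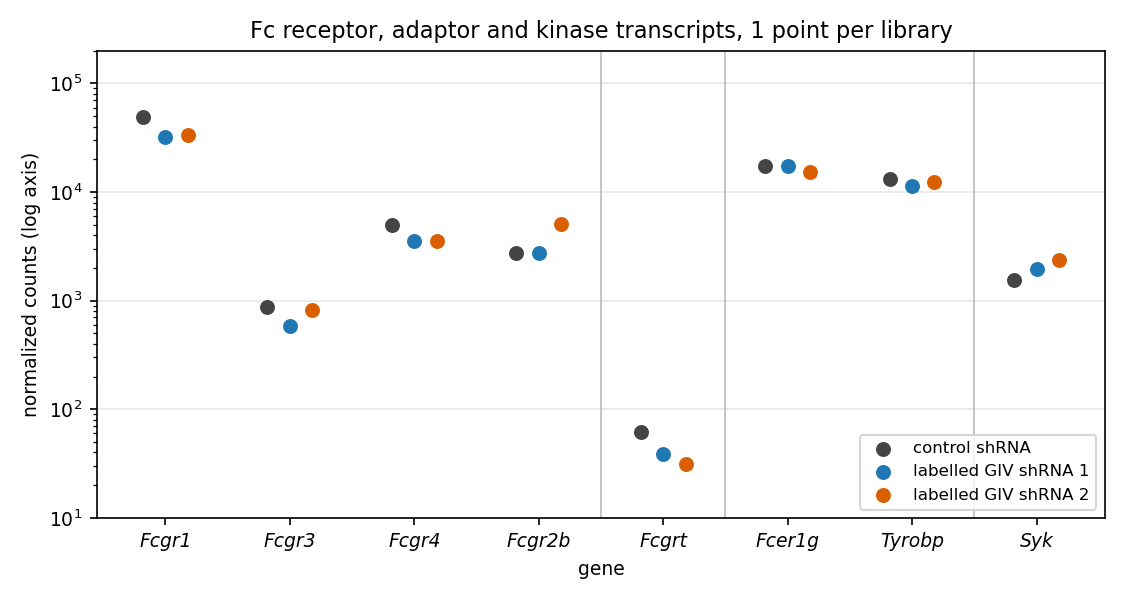
Normalized counts of the 8 genes on a log axis, with 1 point per library for the control shRNA and for the libraries labelled GIV shRNA 1 and GIV shRNA 2. The control is the highest point for Fcgr1 (48715), Fcgr4 (4924) and Fcgrt (61.8), whereas the library labelled shRNA 2 is the highest for Fcgr2b (5053) and Syk (2377).

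Levels of different genes were compared per kb of the longest annotated transcript. In the control, normalized counts per kb were 18816 for Fcgr1, 3920 for Fcgr4, 644 for Fcgr3 and 769 for Fcgr2b. Fcgr1 thus made up 77.9% of the summed level of the 4 IgG receptors in the control, 75.4% in the shRNA 1 library and 72.6% in the library labelled shRNA 2. The share of Fcgr2b was 3.18%, 4.69% and 8.08%. Summed activating receptors stood at 30.4 times the inhibitory receptor in the control, 20.3 times in the shRNA 1 library and 11.4 times in the library labelled shRNA 2. The size of this ratio and of the shares depends on the transcript length used. As means over the 3 libraries, the median length in place of the longest gave Fcgr2b 2399 per kb instead of 990. It gave Fcgr1 23857 instead of 14693 and Fcgr3 574 instead of 559, while Fcgr4 stayed at 3190.

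This ratio is taken within a library, so library scaling does not enter it. Its log2 value minus that of the control was -0.58 for the shRNA 1 library and -1.42 for the library labelled shRNA 2. In the shRNA 1 library the shift came with lower activating receptors at an equal Fcgr2b, and in the library labelled shRNA 2 both parts differed. The mean difference was -1.001, and an exact permutation test over the 3 libraries, two-sided, gave p = 0.667, where the smallest p that 3 assignments allow is 0.333. Leaving out Fcgr3, the less certain of the pair that shares sequence, gave -1.01. Fcgr3 made up 2.60% to 3.42% of the summed level, so its omission could move the ratio little. Reads that Fcgr2b shares with it stay in the ratio.

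**Figure D3:**
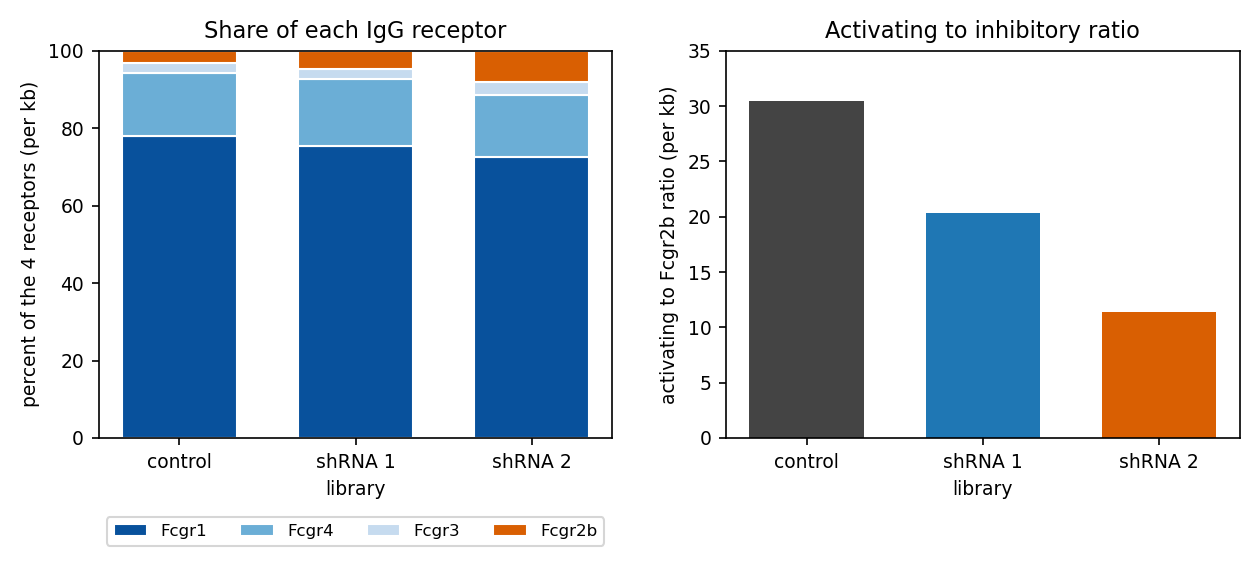
Left, stacked bars give the share of each of the 4 IgG receptors in their summed level per kb in each of the 3 libraries, with Fcgr2b at 3.18%, 4.69% and 8.08%. Right, bars starting at 0 give the ratio of the summed activating receptors to Fcgr2b per kb, which was 30.4 in the control, 20.3 in the shRNA 1 library and 11.4 in the library labelled shRNA 2.

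Fcgrt (ENSMUSG00000003420.8, chromosome 7, 45092990 to 45103851, minus strand) was the least abundant gene of the group. Its values were 61.8 normalized counts with the control shRNA, 38.6 in the shRNA 1 library and 31.3 in the library labelled shRNA 2, or roughly 66.3, 34.8 and 32.4 reads. Both libraries labelled GIV-depleted lay below the control. The log2 differences were -0.66 and -0.96, with a mean of -0.81 (SE 0.42, adjusted p = 0.75 in limma), and counting error is a larger part of these values than of the others. B2m, which encodes the partner chain of Fcgrt and of class I molecules, did not share the direction, with 76682, 83487 and 65478 normalized counts and log2 differences of 0.12 and -0.23.

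The ITAM adaptors lay close to the control. Fcer1g (ENSMUSG00000058715.11, chromosome 1, 171229572 to 171234365, minus strand), the gamma chain that Fcgr1, Fcgr3 and Fcgr4 need at the cell surface, had 17463, 17436 and 15399 normalized counts. Only the library labelled shRNA 2 departed from the control, at 0.882 of it. Its mean log2 difference was -0.09 (SE 0.14, adjusted p = 0.91 in limma), and 0.01 with the trend on GC content and length removed.

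Tyrobp (ENSMUSG00000030579.10, chromosome 7, 30413760 to 30417585, plus strand) had 13194, 11322 and 12314 normalized counts. Both libraries lay slightly below the control, at 0.858 and 0.933 of it, with a mean log2 difference of -0.16 (SE 0.13, adjusted p = 0.83 in limma). With the trend removed it was -0.01, made of -0.08 and 0.05. Both adaptor transcripts are short, at 683 and 597 nt, and the direction of Fcer1g turned round and that of Tyrobp nearly vanished with that setting.

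Syk (ENSMUSG00000021457.14, chromosome 13, 52583173 to 52648792, plus strand), the kinase that docks on phosphorylated ITAMs, had the opposite direction to the activating receptors. It had 1547 normalized counts with the control shRNA, 1939 in the shRNA 1 library and 2377 in the library labelled shRNA 2. The control was the lowest of the 3, and the others were at 1.254 and 1.54 times the control. The mean log2 difference was 0.47 (SE 0.19, unadjusted p = 0.065, adjusted p = 0.73 in limma), and 0.43 with the trend removed.

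Per kb, and as a mean over the 3 libraries, the order of levels was Fcer1g (24548 normalized counts per kb), Tyrobp (20564), Fcgr1 (14693), Fcgr4 (3190), Fcgr2b (990), Fcgr3 (559), Syk (364) and Fcgrt (24.8). The first 3 stood at percentiles 99.0, 98.8 and 98.3 of the features tested by this measure. Fcgr4 was at percentile 92.0, Fcgr2b at 77.6, Fcgr3 at 66.3, Syk at 57.1 and Fcgrt at 18.5. Syk and Fcgr3 overlapped across libraries, with 288 to 443 and 429 to 644 per kb, and no other neighbours in that order overlapped. The median transcript length in place of the longest changed the rank of 4 genes, exchanging Tyrobp with Fcgr1 and Fcgr3 with Syk.

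Across the group, 6 of the 8 genes lay below the control with either shRNA, while Fcgr2b and Syk lay above it with either. For Fcer1g and Fcgr2b the difference in the shRNA 1 library was near 0, at -0.00 and 0.01. Among all 13877 features 35.2% were lower in both and 34.9% higher in both, in comparisons that share 1 control. Of the 6 genes of the group whose mean value was 1000 or more, 4 were lower in both, against 35% of the 6448 such features, of which 36.9% were higher in both. The median log2 difference of the 8 genes was -0.34 for the shRNA 1 library and -0.14 for the library labelled shRNA 2, where the medians over all features were 0.00 and -0.00. With the trend on GC content and length removed, 4 of the 8 genes were lower in both.

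By a rule of at least 1.5-fold, 3 genes were lower in the shRNA 1 library, namely Fcgr1, Fcgrt and Fcgr3, against 7.85% of all features tested. The values of Fcgr1 and Fcgr3 lay just past that limit. With the trend on GC content and length removed, 0 genes were lower by this rule in the shRNA 1 library, where Fcgr1 was at -0.58, Fcgrt at -0.56 and Fcgr3 at -0.54. In the library labelled shRNA 2, Fcgrt was lower, against 7.19% of all features, and Fcgr2b and Syk were higher, against 9.99%. There Fcgrt, at -0.89, and Fcgr2b, at 0.82, stayed past the limit with the trend removed, and Syk, at 0.55, did not. No gene of the group was higher by this rule in the shRNA 1 library, where 8.83% of features were. Among features with a mean of at least 1000 these shares were smaller, with 1.85% lower and 3.6% higher in the shRNA 1 library and 2.39% lower and 3.16% higher in the library labelled shRNA 2.

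**Figure D4:**
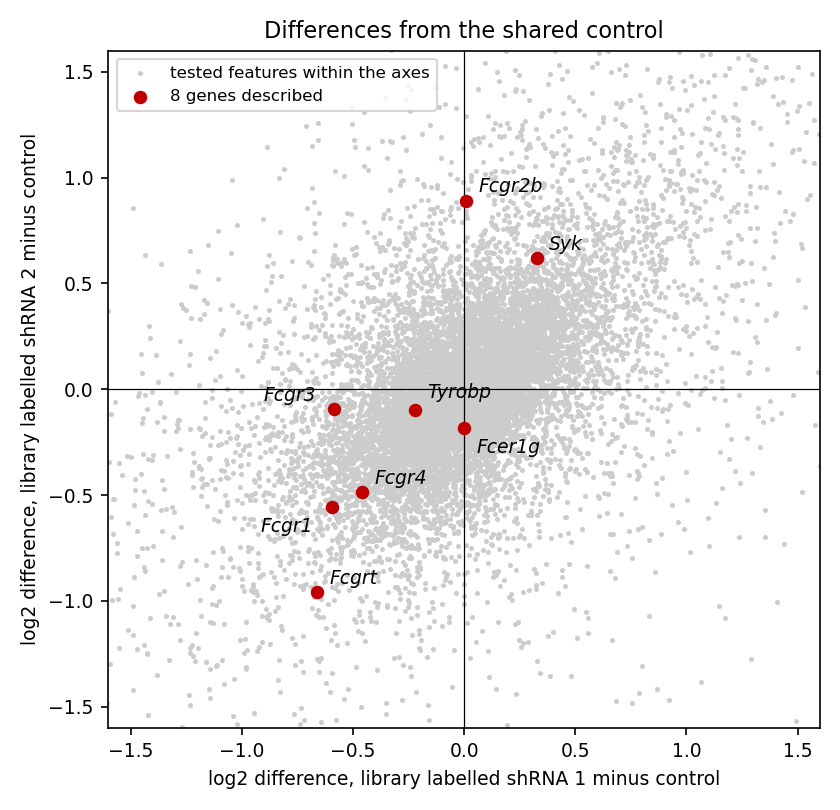
Each point gives the log2 difference of 1 feature from the control with shRNA 1 (horizontal) and in the library labelled shRNA 2 (vertical), both on the log2(value + 1) scale, with tested features in grey and the 8 genes in red. Fcgr1 and Fcgr4 lie near the diagonal at about equal negative differences, and Fcgr2b lies close to the vertical axis at 0.89. Some features lie beyond the axes, and both differences share 1 control.

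The features whose values lay nearest in the plane of these differences were listed for the 2 genes farthest from no difference. For Fcgrt these were H2-Q1, Hist3h2a and Tmem26, at distances of 0.01, 0.02 and 0.03 on the log2 scale, and 10 of 10390 protein-coding features lay within 0.1 of Fcgrt in both differences. For Fcgr2b they were Clec4a3, Lrrc8c and Tanc2, at distances of 0.03, 0.05 and 0.06, with 7 of 10389 within 0.1. Likeness over 3 libraries with 1 shared control is a description only.

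The genes around the receptors on chromosome 1 differed among themselves. From 100 kb below Fcgr2b to the end of Fcer1g, 10 of 24 annotated features were tested, 4 of them members of the group. With either shRNA 6 of the 10 lay below the control and 2 above it, against 35.2% and 34.9% of all features tested. Fcgr3, Fcgr4 and Fcer1g of the group are among the 6. Fcrlb, an intracellular Fc receptor-like gene near Fcgr2b, had 119, 59.7 and 47.2 normalized counts, and Sdhc, a housekeeping gene between Fcgr3 and Fcer1g, had 4491, 4853 and 4393. Dusp12, a phosphatase gene in the same stretch, had 1247, 345 and 1119. Sdhc and Dusp12 were named after their values were seen.

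Receptors and signalling partners around the group were described from lists of the pathway, in which limma gave no gene an adjusted p under 0.05. The counts of each list stand beside shares of 35.2% lower in both and 34.9% higher in both among all features tested. Of 14 other Fc receptor and partner genes, 4 were tested, of which 3 lay below the control with either shRNA and none above it with either. Fcrlb had the largest difference of these, at -1.15 (SE 0.38, unadjusted p = 0.038, adjusted p = 0.69 in limma). Trim21, a cytosolic IgG receptor and ubiquitin ligase, had 4074, 3402 and 3281 normalized counts, and Fcrl1 had 1248, 1236 and 852. The IgE receptor gene Fcer1a and the polymeric immunoglobulin receptor gene Pigr were at 0 in all libraries.

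Of 22 measured receptors that couple to ITAM adaptors or carry a similar motif, 18 were tested, with 6 below the control with either shRNA, 4 above it and 8 in opposite directions. Trem2, a lipid-sensing receptor that signals through Tyrobp, had 2194 normalized counts with the control shRNA, 1433 in the shRNA 1 library and 1515 in the library labelled shRNA 2. The control was the highest, and the difference of -0.57 (SE 0.15, unadjusted p = 0.017, adjusted p = 0.59 in limma) was close to that of Fcgr1. Sirpb1b had 28.9, 7.60 and 14.8, Klrk1 had 235, 178 and 140, and Clec4d, a lectin that couples to the gamma chain, had 12033, 7177 and 11947.

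Among Src family kinases, which phosphorylate ITAMs, 4 of 6 tested genes were lower in both libraries and none was higher in both. The differences were small apart from that of Src, with 2487, 3211 and 1402 normalized counts, where the libraries labelled GIV-depleted lay on opposite sides of the control. Fgr had 12129, 10331 and 10866, and Lck had 1162, 1059 and 1011.

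Of 33 tested adaptors and effectors downstream of Syk, 7 lay below the control with either shRNA and 14 above it, with a median log2 difference of 0.02. Cbl, a ubiquitin ligase that acts on Syk, had 4940, 7328 and 7133 normalized counts, a difference of 0.55 (SE 0.12, unadjusted p = 0.011, adjusted p = 0.51 in limma). Vav3, a guanine nucleotide exchange factor, had 729, 1290 and 993. Lower values in both libraries were seen for Sh3bp2, an adaptor that binds Syk, with 7747, 5466 and 6317, while Lat had 15.3, 21.6 and 31.3. Lat2 and Pik3cd, named after their values were seen, were the other 2 genes of this list with an unadjusted p under 0.05, both lower. In limma 3 of the 33 thus passed that limit, against 6.94% of all features tested.

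ITIM receptors and inhibitors showed no common direction, as 9 of 26 tested genes lay below the control and 10 above it with either shRNA, at a median of 0.00. Cd300lf, an ITIM receptor of myeloid cells, had 819, 1321 and 1623 normalized counts, a difference of 0.84 (SE 0.20, unadjusted p = 0.014, adjusted p = 0.55 in limma). Cd33 had 136, 162 and 316, high in the library labelled shRNA 2 as Fcgr2b was. Pecam1 had 28.2, 49.3 and 52.9, and Lair1 had 19.6, 16.9 and 7.77. In limma 4 of the 26 had an unadjusted p under 0.05, 2 higher and 2 lower, against 6.94% of all features tested. Genes with an unadjusted p under 0.05 that were named after their values were seen include Inpp5d, the phosphatase recruited by Fcgr2b, with 3373, 4574 and 4754. They also include Dok3, an inhibitory adaptor, with 4732, 3013 and 2972, and the ITIM receptor Lilrb4a, with 56671, 43637 and 44043.

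**Figure D5:**
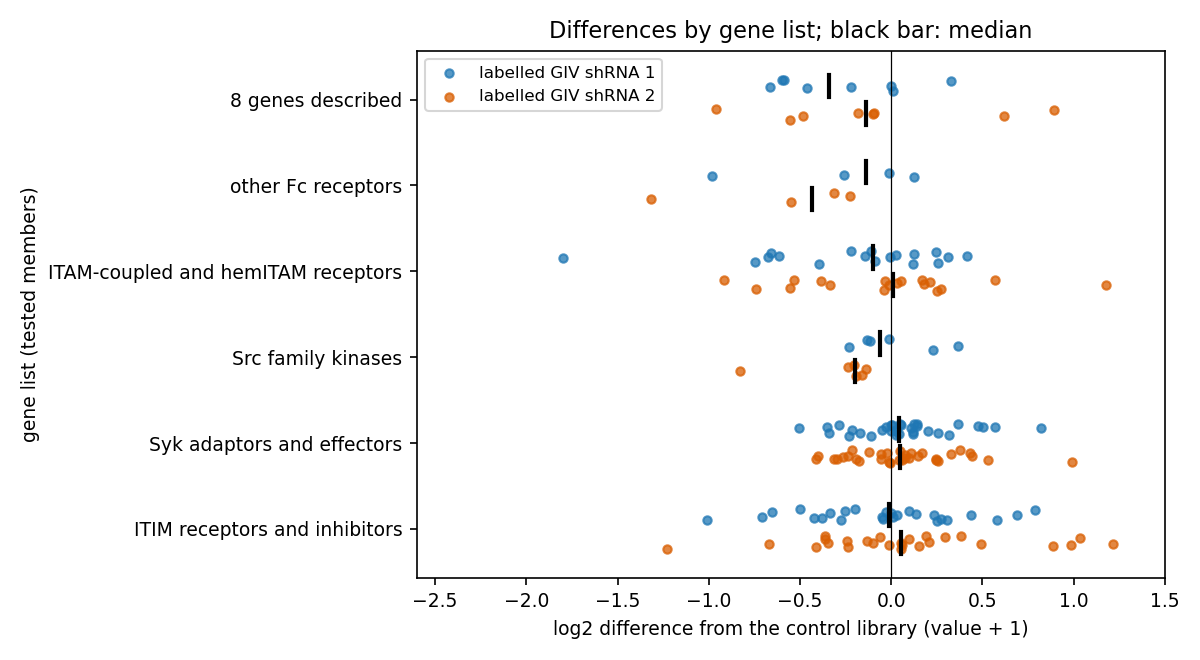
Log2 differences from the control on the horizontal axis for the tested genes of each list, with the shRNA 1 library in blue and the library labelled shRNA 2 in orange and black bars at the medians; vertical scatter within a list only separates points. The medians of the 8 genes lie at -0.34 and -0.14, while those of the 33 adaptors and effectors downstream of Syk lie at 0.04 and 0.05.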

How the data were processed

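The deposited table holds normalized counts per gene made by the authors, a signal that is never negative, with 1 column per library and 54331 versioned Ensembl identifiers. Salmon, DESeq, DESeq2 and build GRCm38 are named, per the submitters' processing notes, without versions or roles; no source used here names the annotation release. Libraries were stranded mRNA, per the labels' protocols. Between 82.5% and 83.9% of low values (up to 20) lay within 0.1 of a whole multiple of the commonest lowest value, too few to recover reads, so no count model was used; approximate reads are values divided by it.

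Symbols were found for 54097 identifiers; positions, lengths and GC content came from GENCODE M21 (GRCm38). Values were tested as log2(value + 1), a scale that understates changes of low genes, for features with a mean of at least 10, with limma 3.58.1 in R 4.3.3 (variance trend, two-sided, Benjamini-Hochberg). With 1 control, its variation is taken to equal that between the shRNA libraries. The design text calls those biological replicates, but no source says they came from separate cultures. The p-values thus measure only the spread between these libraries, of the gene itself and pooled over the features tested. The fit was run on simulated data whose changes were larger than any difference of the group. That run does not show whether differences as small as these would be found. Genes and lists were chosen with earlier results of these data known. Genes named are the 8, Ccdc88a, B2m, up to 4 of each pathway list with the largest mean difference, and the 3 nearest features. Alternatives covered pseudocount, filter, scaling, GC and length trend, variance trend, fold and the omission of either shRNA library. Some genes that this rule or the marker lists would name are not reported here.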

Additional observations from a re-analysis of the deposited data

How the results depend on the processing

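Of 87 values of single genes under the alternatives, 86 kept their direction. Fcer1g reversed to 0.013 once trends on GC content and length were removed. Settings of the filter and of the variance trend cannot change a difference, only its p-value, so their values among the 87 could not reverse. Of the 87, 71 had a test, of which 0 passed an adjusted p of 0.05 in limma (lowest 0.249). The other 16, with 1 library left per arm, had none. The number of features called, 0, became 1 with a filter at a mean of 50, with equal library totals and with upper quartile scaling, Gm10443 each time. Genes of the group at least 1.5-fold from the control in either library numbered 5, but 2 with the GC and length trend removed and 0 at a fold of 2; the cause was not tested. In single libraries that number was 3 and 3. By the same rule 7.85% of all features tested were lower and 8.83% higher in the shRNA 1 library. In the library labelled shRNA 2 these shares were 7.19% and 9.99%. No share of all features was computed for the counts of 5, 2 and 0. The number of genes lower was 6 and 6, and their median ranged from -0.34 to -0.14. The medians over all features tested were 0.0005 and -0.0021. For the log2 ratio of activating to inhibitory receptors, leaving out a library gave differences from the control of -1.42 to -0.58. The mean difference without Fcgr3 and with the median transcript length, both chosen after seeing the data, was -1.01 each time. The length of a gene is the same in every library, so the length setting could move this difference little. The median transcript length changed the rank of 4 genes per kb. A setting without a filter kept features above 0 in any library. No paired analysis was possible because there is 1 control. The single control and the low reads of Fcgrt limit what these data can show.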
